A study of Rattus norvegicus with 132 samples.

Results

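Sat1 encodes spermidine/spermine N1-acetyltransferase 1, and its transcript was followed here across 4 groups and 4 areas of the rat kidney. Sat1 is 1 of the 9271 genes in the deposited table, and it was chosen from its measured differences between the groups in these same data, so its levels and its differences between groups are given as a description with no test. Expression was measured with the GeoMx digital spatial profiler. Its probes hybridise to RNA in a section, and light cleaves off their DNA barcodes within an outlined region of interest (ROI), so that sequencing counts each ROI by itself. The study holds 132 ROIs drawn by hand in formalin-fixed, paraffin-embedded kidney sections, with 3 rats in each of the groups Sham, HS, RM and RM-HS. The areas were cortex (C), corticomedullary junction (CMJ), medulla (M) and glomeruli (G).

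RM and HS are not spelled out in the labels. The series concerns acute kidney injury after trauma, a field where these letters are commonly read as rhabdomyolysis, the breakdown of muscle, and hemorrhagic shock. That reading is not stated in the labels. RM-HS carries both names, and Sham is the control. Strain, age, sex and the time after injury are not given in the sources used here. Sham had 9 ROIs in every area, HS had 9 in the cortex, 9 at the junction, 6 in medulla and 5 in glomeruli, RM had 9, 8, 9 and 9 in that order, and RM-HS had 9, 8, 9 and 6. The probes are those of the mouse whole-transcriptome set, used on rat tissue, so a level of 1 gene cannot be set against that of another.

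Polyamines (putrescine, spermidine and spermine) are small positively charged molecules that bind nucleic acids and are needed for growth and translation. Ornithine decarboxylase makes putrescine, and aminopropyl groups from decarboxylated S-adenosylmethionine extend it to spermidine and spermine. SAT1 acetylates spermidine and spermine so that they are exported or oxidised, which makes it the rate-limiting step of their breakdown. The gene is known to be induced in the kidney by ischemia and reperfusion, and the oxidation of acetylated polyamines releases hydrogen peroxide and aldehydes.

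The promoter is shown as the regulatory sequence next to the start of the transcript measured here. Rat Sat1 lies on the plus strand of chromosome X, and these are the 250 bases before its annotated start (RefSeq, build GRCr8, chrX:44007839-44008088), 5′ to 3′, with GC boxes in capitals:
Sat1 promoter: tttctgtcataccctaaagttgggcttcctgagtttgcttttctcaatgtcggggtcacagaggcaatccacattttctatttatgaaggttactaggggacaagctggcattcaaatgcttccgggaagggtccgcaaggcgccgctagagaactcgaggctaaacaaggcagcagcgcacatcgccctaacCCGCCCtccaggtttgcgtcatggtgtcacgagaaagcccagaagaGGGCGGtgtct
The GC box, GGGCGG on either strand, was found at 2 places, whose first bases lie 57 bases (minus strand) and 11 bases (plus strand) before the start. Of 33469 rat promoter windows, each searched over the 250 bases before the gene's start alone, 30.5% hold a GC box. Neither strand of the Sat1 window held TGACNNNGC (core of the antioxidant response element, in 10.1% of windows), TGANTCA (AP-1, 6.34%), TGACGTCA (cAMP response element, 1.59%), GAANNTTC (heat shock element core, 7.23%), TATGACTAA (polyamine-responsive element, 0.14%), CCAAT (34.0%) or TATAAA (12.9%). These letters describe this window alone, and sites farther away were not examined.

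Values are the deposited signal, scaled by the authors so that the upper quartile of each ROI is the same. Total reads recovered from this scaling ranged from 17894 to 2305964 per ROI, with a median of 93104 in glomeruli against 819487 in cortex. Sat1 itself was read 1 to 6285 times per ROI, with a median of 30 reads in glomeruli, 671.5 in the cortex, 943.5 at the junction and 2275 in medulla, so glomerular values are the least precise. Its signal was over 2 times that of the negative probe, which matches no transcript, in all of the 132 ROIs but 1, a Sham glomerular ROI with 1 Sat1 read (exact 95% Poisson interval 0.0253 to 5.57 reads, counting error only). In Sham the summed podocyte markers had a median signal of 686 in glomeruli against 245 in cortex, and the summed loop of Henle markers 2294 in medulla against 399 in cortex.

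Plate and well codes place RM and RM-HS on plate C, apart from 1 RM glomerular ROI on plate A, and HS on plate E. The ROIs of a group were placed in 3 sets of neighbouring wells, called well runs here. Sham runs 1 and 2 lie on plate C and Sham run 3 on plate E. RM-HS run 3 is not 1 unbroken stretch. Its medullary wells directly follow those of RM-HS run 2, and Sham run 1 lies between them and its other wells. Placing these wells in run 3 was a choice. The block, the RM-HS run means and the fits without RM-HS run 2 or run 3 rest on it. The comparison of HS with Sham within its own plate therefore rests on 12 Sham ROIs. Whether a run holds 1 animal is not stated, and no label ties an ROI to a rat. With 3 rats in a group, ROIs share animals. Every p-value below is over ROIs and is therefore too small. In a bulk ROI, a change in the share of cells that express a gene and a change in its RNA per cell cannot be told apart.

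In Sham, Sat1 was highest in medulla, where the 9 ROIs ran from 197 through a median of 240 to 411. Cortical Sham ROIs ran from 90.9 through 149 to 183, junction ROIs from 92.3 through 110 to 122, and glomerular ROIs from 19.4 through 87.2 to 174. Every medullary ROI of Sham lay above every Sham ROI of the other areas, while the other areas overlapped. On the log2 scale of signal plus 1, Sham medulla exceeded cortex by 0.83 ± 0.18 (SE), the junction lay below cortex (-0.38 ± 0.18), and so did glomeruli (-0.88 ± 0.18).

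**Figure D1:**
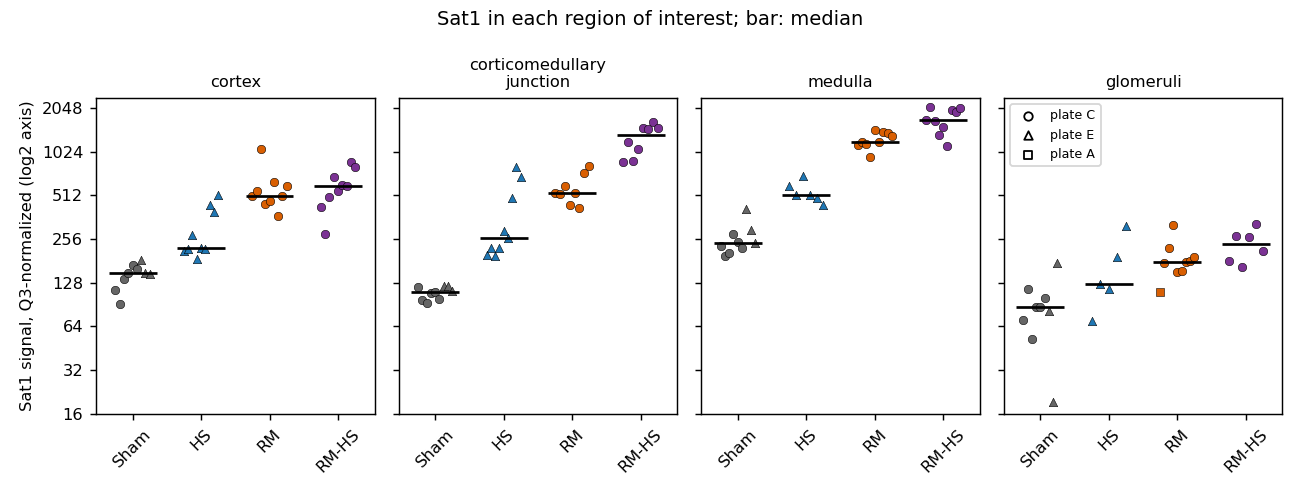
Sat1 signal (log2 axis) in each of 132 ROIs by area, with 1 point per ROI, colour for the group, shape for the plate and a bar at the median. In cortex, junction and medulla every ROI of HS, RM and RM-HS lies above every Sham ROI, and glomeruli overlap.

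RM gave Sat1 signals of 369 to 1067 in the cortex (median 508), 417 to 819 at the junction (median 529) and 945 to 1444 in medulla (median 1194). The lowest RM ROI of each of these areas lay above the highest Sham ROI of the same area. Means ± SD were 570 ± 202 (n = 9) in the cortex, 572 ± 139 (n = 8) at the junction and 1242 ± 158 (n = 9) in medulla, against 144 ± 27.7, 109 ± 10.8 and 258 ± 65.5 in Sham (n = 9 each). RM minus Sham was 1.98 ± 0.23 in the cortex, 2.40 ± 0.24 at the junction and 2.33 ± 0.23 in medulla (log2 difference ± SE), or 3.95-fold, 5.26-fold and 5.03-fold. Averaged over the 4 areas the difference was 2.02 ± 0.17, or 4.05-fold, the sixth highest of the 8827 genes fitted, and with plate C alone it was 2.02 as well.

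HS gave smaller differences with more spread between runs. Its ROIs ran from 185 through 223 to 513 in the cortex, from 196 through 258 to 804 at the junction, and from 436 through 514 to 692 in medulla, again all above the highest Sham ROI of the area. In cortex the margin was narrow, with 185 in the lowest HS ROI against 183 in the highest Sham ROI. HS minus Sham was 0.88 ± 0.27 in the cortex, 1.48 ± 0.27 at the junction and 1.22 ± 0.29 in medulla. Averaged over areas it was 1.09 ± 0.22, or 2.12-fold and the fifth highest of 8827. With plate E alone the differences were 0.81, 1.44 and 1.08 in those areas and 1.10 averaged.

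A large part of the HS spread lay in 1 run. HS run 3 averaged 449 ± 61.2 in cortex and 659 ± 159 at the junction (SD, n = 3 ROIs each), against 234 and 206 in run 1 and 209 and 257 in run 2. Its cortical ROIs were also deeper, at 1105840 to 1872450 reads against 187967 to 510154 in runs 1 and 2. Among the genes of an ROI, cortical Sat1 ranked 74.5 to 119 from the highest in run 3 and 67.5 to 102 in runs 1 and 2. At the junction it ranked 46 to 114 in run 3 and 92 to 214 in runs 1 and 2. The part of depth in the run difference was not tested. Without HS run 3 the difference from Sham was 0.54 in the cortex, 0.98 at the junction, 0.30 in glomeruli and 0.70 averaged over areas. HS run 3 had no medullary ROI, so medulla was sampled in HS runs 1 and 2 only, at 599 ± 90.3 and 482 ± 41.1.

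RM-HS held the highest Sat1 levels of the study. Its ROIs ran from 275 through 594 to 865 in the cortex, from 863 through 1333 to 1631 at the junction, and from 1128 through 1691 to 2093 in medulla, with no overlap with Sham. RM-HS minus Sham was 2.02 ± 0.23 in the cortex, 3.52 ± 0.24 at the junction and 2.77 ± 0.23 in medulla, or 4.04-fold, 11.5-fold and 6.83-fold. The junction difference was the second highest of 8827 genes in that area, and the average over areas, 2.47 ± 0.17 or 5.52-fold, the third highest (2.47 with plate C alone).

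Complete separation upward from Sham was uncommon among genes. In cortex it was met by 0.113% of the 8827 genes for HS, 2.06% for RM and 1.11% for RM-HS. At the junction the shares were 0.521%, 5.09% and 4.64%, and in medulla 0.227%, 4.66% and 4.01%. Sat1 met it in 3 of 4 areas for each injury, and since Sat1 was selected on these contrasts, nothing is read from that.

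In glomeruli the ranges of all 3 injuries overlapped Sham. The 5 HS ROIs read 69.8, 116, 126, 194 and 314, of which 2 exceeded the highest Sham ROI (174). RM ran from 110 through 178 to 321 in 9 ROIs, with 5 of the 8 on plate C above the highest Sham ROI, and RM-HS from 164 through 237 to 324, with 5 of 6 above it. The differences from Sham were 0.77 ± 0.29 in HS, 1.36 ± 0.24 in RM and 1.55 ± 0.25 in RM-HS, the fit leaving out the plate A ROI. Fewer than 50000 reads in all were held by 6 glomerular ROIs, the 3 of Sham run 3 and 3 of HS. Without these the differences were 0.81, 1.20 and 1.39, and the Sham mean was 85.6 ± 22.3 (n = 6). That leaves HS with 2 glomerular ROIs (mean 254), both of HS run 3, and plate E with no Sham glomerular ROI.

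**Figure D2:**
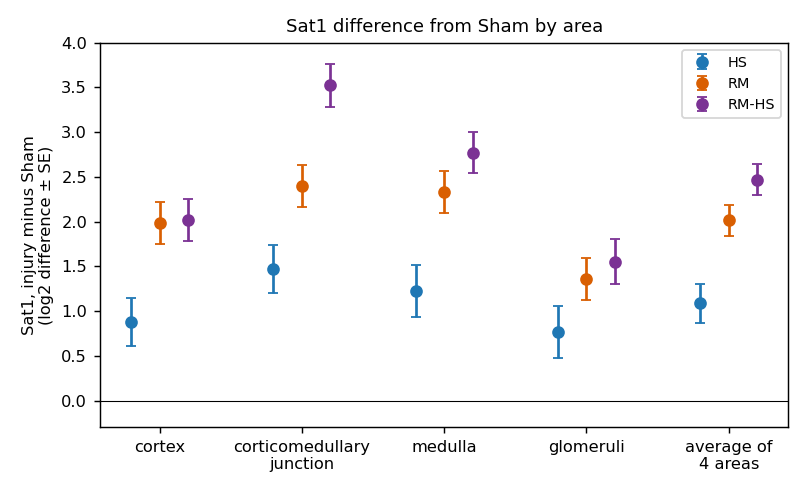
Sat1 log2 difference from Sham (± SE) by area and as the average of 4 areas, from a fit with plate as a term and the well run as a random block. RM-HS stands above RM at the junction (3.52 against 2.40) and lies beside it in cortex (2.02 against 1.98).

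The groups were separated in different ways by area once both injuries were present. RM-HS exceeded RM by 1.13 ± 0.23 at the junction, or 2.19-fold, and all 8 RM-HS ROIs lay above the highest RM ROI (863 against 819). In medulla the excess was 0.44 ± 0.22, with 7 of 9 RM-HS ROIs above the highest RM ROI. In cortex it was 0.03 ± 0.22 with 0 of 9 above, and in glomeruli 0.19 ± 0.24 with 1 of 6 above. RM and RM-HS share plate C, so the plate does not separate them.

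Against HS, RM-HS was higher by 1.13 ± 0.32 in the cortex, 2.05 ± 0.32 at the junction, 1.55 ± 0.33 in medulla and 0.78 ± 0.35 in glomeruli. RM-HS and HS lie on different plates, which are linked by Sham alone. On the log2 scale, a sum of differences stands for a product of folds. The RM-HS difference minus the sum of the RM and HS differences was, on that scale, -0.85 ± 0.35 in the cortex and -0.78 ± 0.36 in medulla. It was -0.58 ± 0.38 in glomeruli and -0.35 ± 0.35 at the junction. The last of these is no larger than its standard error. A sum of differences in signal was not fitted, and its sign can differ. Mean junction signals were 109 in Sham, 374 in HS, 572 in RM and 1262 in RM-HS. In medulla they were 258, 540, 1242 and 1707.

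The order of areas changed with the group. In Sham the junction was below cortex, in RM the junction minus cortex was 0.04 ± 0.19, in HS 0.22 ± 0.18, and in RM-HS 1.13 ± 0.19. The RM-HS effect at the junction exceeded that in cortex by 1.51 ± 0.26, the HS effect by 0.59 ± 0.26 and the RM effect by 0.41 ± 0.26. Medulla was above cortex in every group, by 1.17 ± 0.18 in RM, 1.17 ± 0.21 in HS and 1.58 ± 0.18 in RM-HS. Glomeruli were below cortex in every group, with glomeruli minus cortex at -0.88 ± 0.18 in Sham, -0.99 ± 0.22 in HS and -1.34 ± 0.21 in RM-HS, and with the glomerular level at 0.353 of the cortical one in RM.

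Ranked over the 16 combinations of group and area, Sat1 was highest in RM-HS medulla (mean 1707 ± 335, n = 9), followed by RM-HS junction (1262 ± 298, n = 8) and RM medulla (1242 ± 158, n = 9). Next came RM-HS cortex, RM junction and RM cortex, with means of 587, 572 and 570, and then HS medulla (540), HS junction (374) and HS cortex (297). The lower end was held by Sham medulla (258), the glomeruli of RM-HS (235), RM (187) and HS (164), Sham cortex (144), Sham junction (109) and Sham glomeruli (87.6). Neighbours in this order differed by more than the larger of their log2 SDs at 3 steps alone: between RM-HS medulla and RM-HS junction, between RM medulla and RM-HS cortex, and between Sham cortex and Sham junction.

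**Figure D3:**
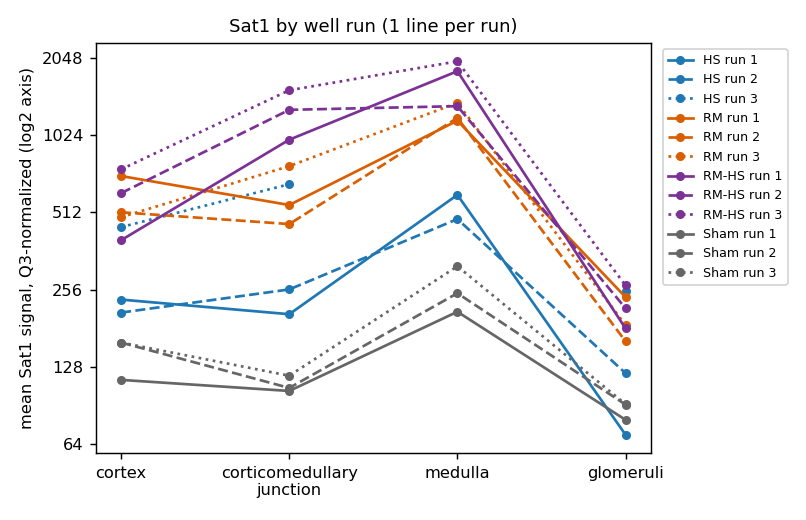
Mean Sat1 signal (log2 axis) of each of 12 well runs in the 4 areas, 1 line per run, coloured by group. HS run 3, with no medullary ROI, lies near the RM runs in cortex and at the junction, and the Sham runs lie lowest outside glomeruli.

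Run means of the log2 values, averaged over areas, were 6.87, 7.14 and 7.14 in Sham, 7.73 and 7.89 in HS runs 1 and 2, 9.13, 8.84 and 9.12 in RM, and 9.21, 9.41 and 9.78 in RM-HS. HS run 3 averaged 8.70 over 3 areas. Over cortex, junction and glomeruli alone, where every run had ROIs, HS run 3 (8.70) lay among the RM runs (8.78, 8.39 and 8.69) and beside RM-HS run 1 (8.68), while the Sham runs (6.59, 6.86 and 6.76) lay below all others. As ratios, the 3 RM-HS runs differed most in the cortex, at 399 ± 112, 608 ± 68.7 and 753 ± 142 (SD, n = 3 ROIs each), and at the junction, at 982, 1283 and 1529.

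Of the other genes of polyamine catabolism, only Sat2 and Smox could be tested. Sat2 alone was called, in 1 area of 1 group, and it was lower. Sat2, a paralog whose enzyme acetylates thialysine, and Smox, the spermine oxidase that converts spermine back to spermidine, were measured and tested. Sat2 in medulla ran from 65.0 through 77.1 to 90.6 in Sham and from 44.7 through 51.2 to 59.4 in RM, so that no RM ROI reached the lowest Sham ROI. This fall of 0.60 ± 0.18 (log2 difference -0.60, adjusted p = 0.0247, limma) was the single call for Sat2, and it was lost in 7 of 24 alternatives (adjusted p up to 0.386), among them without any one of RM runs 1, 2 and 3, Sham run 2 or Sham run 3. Sat2 averaged over areas differed from Sham by -0.25 ± 0.13 in RM, -0.01 ± 0.17 in HS and -0.21 ± 0.13 in RM-HS (adjusted p = 0.275, 0.999 and 0.505, limma).

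Smox was not called in any area or average. It differed from Sham by -0.21 ± 0.13 in RM, 0.07 ± 0.17 in HS and -0.08 ± 0.13 in RM-HS (adjusted p = 0.366, 0.999 and 0.842, limma). Medullary Smox ran from 50.04 through 61.8 to 71.2 in RM-HS against 52.9 through 58.2 to 68.7 in Sham, ranges that nearly coincide. Paox, the oxidase that acts on acetylated polyamines, and the spermidine and spermine synthases Srm and Sms were not among the measured genes. Aoc1 and Hdac10, also on the polyamine list, were not measured either.

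The polyamine list held 35 genes besides Sat1, from catabolism (Sat2 and Smox among them), synthesis, supply, regulation, transport and use, of which 24 were measured and 21 passed the filter on low values. Genes with an adjusted p under 0.05 (limma, two-sided, over 8827 genes) are called. In the average over areas, 4 of the 21 were higher in RM and 0 lower, where 8.3% of all genes were called. In RM-HS 3 were higher and 0 lower (6.83% of all genes called), and in HS 0 were called (0.17% of all genes; 3 of the 21 had an unadjusted p under 0.05). The list's median log2 difference was 0.10 in RM, 0.09 in HS and 0.07 in RM-HS, beside -0.06, -0.03 and -0.02 over all genes.

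These counts moved with single runs, as did the share of all genes called. The RM count was 7 without HS run 3 (25.3% of all genes called) and 2 without Sham run 1 (3.33%) or Sham run 2 (6.79%). The RM-HS count was 6 without HS run 3 (17.6%), 2 without Sham run 2 (5.54%) and 1 without RM-HS run 3 (3.77%) or Sham run 1 (2.19%). The HS count was 1 without HS run 2 (1.17%) and 4 without Sham run 3 (11.5%), the last with no plate term.

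**Figure D4:**
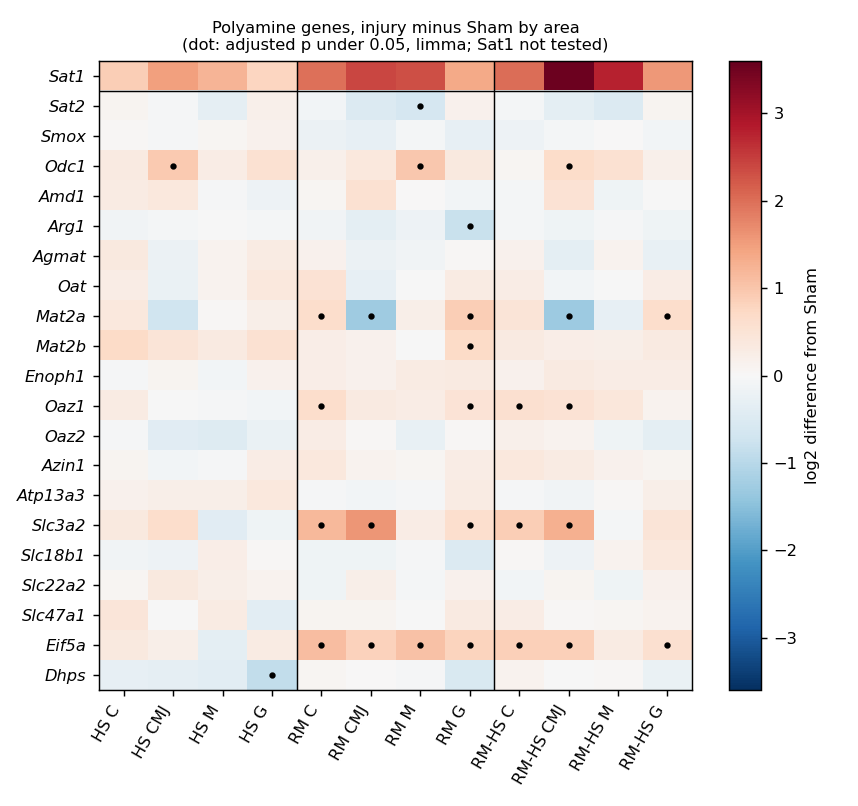
Log2 difference from Sham of Sat1 and 20 other polyamine genes in each group and area, red for higher and blue for lower, with a dot where the adjusted p was under 0.05. Sat1, which was not tested, is the strongest red in the plot (up to 3.52), and Mat2a at the junction is the strongest blue (-1.30 in RM-HS).

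Within areas 0 to 6 of the 21 were called, given here beside the share of all genes called. In RM 4 of 21 were called higher in the cortex (5.49% of all genes called there), 2 higher and 1 lower at the junction (5.64%), 2 higher and 1 lower in medulla (5.96%), and 5 higher and 1 lower in glomeruli (12.8%). In RM-HS 3 were higher in the cortex (3.78%), 4 higher and 1 lower at the junction (6.15%), 2 higher in glomeruli (6.62%) and 0 called in medulla (4.5%; 3 of 21 with an unadjusted p under 0.05). In HS 0 were called in cortex (0.0793%; 2 of 21 unadjusted) and in medulla (0.374%; 1 of 21 unadjusted), 1 was higher at the junction (0.283%) and 1 lower in glomeruli (9.52%).

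Odc1 encodes ornithine decarboxylase, the entry enzyme of polyamine synthesis. In medulla it ran from 52.3 through 66.4 to 105 in Sham and from 108 through 138 to 158 in RM, with no overlap. It rose there by 0.96 ± 0.21 (adjusted p = 3.3e-04, limma), a call that was lost with 1 mean per run and area and without Sham run 1 (adjusted p up to 0.0915). Odc1 also passed the test at the junction in HS, at 0.94 ± 0.24 (adjusted p = 0.045, limma), and in RM-HS, at 0.65 ± 0.21 (adjusted p = 0.041, limma). The HS ROIs there ran from 574 through 706 to 2361 against 346 through 537 to 637 in Sham, and without HS run 3 the HS difference was 0.34 (adjusted p = 0.681, limma). The HS call was lost in 15 of 24 alternatives and the RM-HS call in 10 of 24. In the average over areas Odc1 was higher in RM by 0.47 ± 0.15 (adjusted p = 0.035, limma), lost in 10 of 24 alternatives (adjusted p up to 0.725).

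Amd1, S-adenosylmethionine decarboxylase, was not called, with averages of 0.14 ± 0.15 in RM, 0.12 ± 0.20 in HS and 0.07 ± 0.15 in RM-HS (adjusted p = 0.627, 0.999 and 0.884, limma). Mat2a, which makes S-adenosylmethionine, moved in opposite directions by area. At the junction it ran from 1256 through 2191 to 3290 in Sham, from 659 through 851 to 1034 in RM and from 615 through 837 to 1148 in RM-HS, with no overlap with Sham. It fell there in RM (log2 difference -1.29 ± 0.19, adjusted p = 2.9e-08, limma) and in RM-HS (-1.30 ± 0.19, adjusted p = 1.9e-08, limma), and both calls held in all 24 alternatives.

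In glomeruli Mat2a was higher in RM by 0.87 ± 0.19 (adjusted p = 3.6e-04, limma; lost under quantile normalization and with 1 mean per run and area) and in RM-HS by 0.62 ± 0.20 (adjusted p = 0.037, limma). The RM-HS call in glomeruli was lost in 9 of 24 alternatives, and the cortical rise in RM of 0.63 ± 0.18 (adjusted p = 0.020, limma) was lost in 6, among them without RM run 1, RM run 2 or Sham run 1, and turned to -0.14 under quantile normalization. Mat2b, the regulatory partner of Mat2a, was higher in RM glomeruli by 0.70 ± 0.17 (adjusted p = 0.0025, limma), and Arg1, the arginase that yields ornithine, was lower there (-0.80 ± 0.20, adjusted p = 0.0020, limma). The Arg1 call was lost without RM run 2, and both calls were lost with 1 mean per run and area.

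Among regulators, Oaz1, the antizyme that inhibits ornithine decarboxylase and polyamine uptake, was higher in the average over areas by 0.43 ± 0.11 in RM and 0.41 ± 0.11 in RM-HS (adjusted p = 0.0020 and 0.0054, limma), but the RM value turned to -0.09 under quantile normalization. Its calls in cortex were 0.64 ± 0.15 in RM, which turned to -0.06 under quantile normalization, and 0.58 ± 0.15 in RM-HS, where it came to 0.03. Its calls at the RM-HS junction (0.52 ± 0.15, -0.01 under quantile normalization) and in RM glomeruli (0.50 ± 0.15) were lost in 7 and 6 of 24 alternatives. The average calls were lost without Sham run 1 or Sham run 2, and in RM-HS also without RM-HS run 3 (adjusted p up to 0.505 in RM and 0.981 in RM-HS over the alternatives). The cortical calls were lost without Sham run 2 in RM, and without RM-HS run 3, Sham run 1 or Sham run 2 in RM-HS (adjusted p up to 0.832 and 0.92). Azin1 and Oaz2 were not called.

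Of the transporters, Slc3a2, the heavy chain shared by several amino acid exchangers and linked to diamine export, had the largest rise among the members tested. At the junction it ran from 46.3 through 65.6 to 77.8 in Sham, from 130 through 167 to 253 in RM and from 95.4 through 140 to 190 in RM-HS, without overlap with Sham. It rose by 1.59 ± 0.20 in RM (adjusted p = 3.0e-10, limma) and 1.29 ± 0.20 in RM-HS (adjusted p = 3.1e-07, limma), and both calls held in all 24 alternatives. In cortex it rose by 1.16 ± 0.20 and 0.88 ± 0.20 (adjusted p = 5.4e-06 and 0.0015, limma), and the averages over areas were 0.90 ± 0.15 and 0.64 ± 0.15 (adjusted p = 5.4e-07 and 0.0011, limma). The RM-HS calls in cortex and in the average were lost without RM-HS run 3 or Sham run 1 and with 1 mean per run and area (adjusted p up to 0.359). Slc3a2 was not called in medulla, where Sat1 was highest, and its RM rise in glomeruli (0.60 ± 0.20, adjusted p = 0.034, limma) was lost in 6 of 24 alternatives.

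Eif5a encodes the translation factor that carries hypusine, a residue made from spermidine. It rose in all 4 areas of RM, by 1.10 ± 0.16 in the cortex, 0.84 ± 0.16 at the junction, 1.06 ± 0.16 in medulla and 0.79 ± 0.16 in glomeruli (adjusted p = 4.3e-08, 5.4e-05, 8.3e-08 and 2.0e-04, limma). Medullary Eif5a ran from 378 through 453 to 527 in RM and from 192 through 247 to 308 in Sham, without overlap. In RM-HS it rose in the cortex (0.87 ± 0.16, adjusted p = 3.9e-05, limma; lost without Sham run 1), at the junction (0.85 ± 0.16, adjusted p = 4.1e-05, limma) and in glomeruli (0.58 ± 0.17, adjusted p = 0.024, limma; lost in 9 of 24 alternatives). The averages were 0.95 ± 0.12 in RM, called in all 24 alternatives, and 0.65 ± 0.12 in RM-HS, lost under quantile normalization (adjusted p = 5.7e-11 and 1.5e-05, limma). Dhps, which takes part in making the hypusine, was lower in HS glomeruli (-0.89 ± 0.25, adjusted p = 0.014, limma). That call was lost without the ROIs under 50000 reads (adjusted p = 0.170, limma) and without HS run 2 or Sham run 3.

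Effects of several of these genes differed between areas, tested as the injury effect in an area minus that in cortex. Mat2a at the junction gave -1.92 ± 0.21 in RM (adjusted p = 7.7e-13, limma; 0.793% of all genes called), -1.12 ± 0.20 in HS (adjusted p = 5.6e-04, limma; 0.193%) and -1.76 ± 0.21 in RM-HS (adjusted p = 7.9e-11, limma; 1.22%). The HS value was lost with plate E alone and with 1 mean per run and area. In medulla Slc3a2 gave -0.89 ± 0.22 in RM (adjusted p = 0.0059, limma; 2.98% of all genes called) and -0.94 ± 0.22 in RM-HS (adjusted p = 0.0050, limma; 1.86%), calls lost without RM run 2 or Sham run 2 in the first and without RM-HS run 3 or Sham run 2 in the second. Sat1 went the other way in medulla, at 0.35 ± 0.26 in RM and 0.76 ± 0.26 in RM-HS, untested. In HS medulla 1.48% of all genes were called and in HS glomeruli 10.6%, and the members called there were Eif5a and Ncoa4 in medulla and Slc47a1 and Ncoa4 in glomeruli.

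A second list held genes known to regulate Sat1 or to act with it in ferroptosis, an iron-dependent cell death by lipid peroxidation that SAT1 activity can promote. Of its 14 genes, 12 were measured and tested. In the average over areas 4 were called higher in RM (8.3% of all genes called) and 2 in RM-HS (6.83%), with 0 lower in either. In cortex, junction, medulla and glomeruli 3, 2, 2 and 1 were higher in RM and 1, 2, 2 and 1 in RM-HS, with 0 lower. The shares of all genes called there were 5.49%, 5.64%, 5.96% and 12.8% in RM. In RM-HS they were 3.78%, 6.15%, 4.5% and 6.62%. In HS 0 of 12 were called in the average (limma; 0 with an unadjusted p under 0.05; 0.17% of all genes called) and in each area (2, 0, 0 and 2 unadjusted in cortex, junction, medulla and glomeruli, where 0.0793%, 0.283%, 0.374% and 9.52% of all genes were called). The list's median log2 difference was 0.07 in RM, 0.04 in HS and 0.14 in RM-HS, beside -0.06, -0.03 and -0.02 over all genes.

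Nfe2l2, the transcription factor of the antioxidant response and an inducer of Sat1, rose in all 4 areas of both RM and RM-HS. At the junction it ran from 66.5 through 75.2 to 83.2 in Sham, from 114 through 130 to 138 in RM and from 119 through 125 to 147 in RM-HS, without overlap with Sham. It rose there by 0.83 ± 0.16 and 0.82 ± 0.16 (adjusted p = 4.1e-05 and 4.3e-05, limma). In the other areas it rose by 0.59 to 0.74 in RM and by 0.51 to 0.64 in RM-HS. The averages, 0.71 ± 0.12 and 0.64 ± 0.12 (adjusted p = 4.0e-07 and 9.6e-06, limma), were called in all 24 alternatives, while the RM-HS call in cortex was lost in 13 and the calls in medulla of both groups were lost without Sham run 2.

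Acsl4, which loads polyunsaturated fatty acids into phospholipids, rose in medulla by 1.52 ± 0.23 in RM and 1.38 ± 0.23 in RM-HS (adjusted p = 8.8e-08 and 1.8e-06, limma). Its medullary ROIs ran from 23.8 through 28.6 to 34.4 in Sham, from 67.3 through 89.2 to 98.4 in RM and from 63.0 through 69.4 to 108 in RM-HS, without overlap with Sham. Both medullary calls held in all 23 alternatives that tested the gene. Acsl4 was also called higher in the RM average, by 0.67 ± 0.17 (adjusted p = 0.0023, limma). At the junction Acsl4 ran from 20.8 through 31.1 to 36.9 in Sham and from 38.1 through 46.9 to 57.6 in RM. In RM-HS it ran there from 40.4 through 53.8 to 94.3, and neither group overlapped Sham. The RM rise at the junction, 0.60 ± 0.23, was not called (adjusted p = 0.149, limma). Besides Nfe2l2, a further member of the list was called at the RM-HS junction and in the RM-HS average, and it is not named here. The Acsl4 effect in medulla exceeded that in cortex by 1.11 ± 0.25 in RM and 1.02 ± 0.25 in RM-HS (adjusted p = 0.0018 and 0.0098, limma), calls that were lost without RM run 3 in the first and without RM-HS run 2 or Sham run 1 in the second. Slc7a11, the cystine importer that feeds glutathione synthesis, rose in RM cortex by 1.10 ± 0.21 (adjusted p = 5.4e-05, limma). It also rose at the RM junction by 0.83 ± 0.22 (adjusted p = 0.0060, limma). In the RM average it rose by 0.72 ± 0.16 (adjusted p = 2.8e-04, limma), a call lost without Sham run 2. Gss, glutathione synthetase, was higher in the RM average by 0.50 ± 0.17 (adjusted p = 0.040, limma), lost in 12 of 24 alternatives. It was also higher in RM cortex, by 0.72 ± 0.23 (adjusted p = 0.035, limma). Alternatives are not given here for this cortical call, the Slc7a11 junction call or the Acsl4 average.

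The genes with the profile most like Sat1 were taken by Pearson correlation over the 16 means of log2 signal by group and area, as a description over means that share libraries and scaling. They were Cdkn1a (r = 0.96), Igfbp1 (0.94), Ago2 (0.94), 1810013L24Rik (0.94), Ostf1 (0.93), Clic1 (0.92), Srsf2 (0.92) and Mt1 (0.91), the ninth gene standing at 0.91 and the median of 8826 genes at 0.22. Cdkn1a encodes the cell cycle inhibitor p21, Igfbp1 a binding protein of insulin-like growth factors, and Mt1 a metallothionein that binds zinc and copper. Of the 8, 6 were again among the highest 8 by Spearman's rho, 5 over the 12 means of plate C and 3 over single ROIs. In Sham medulla and RM-HS medulla the mean log2 level was 6.42 and 10.49 for Igfbp1, 8.34 and 10.39 for Mt1 and 5.64 and 6.50 for Cdkn1a, beside 7.98 and 10.71 for Sat1.

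**Figure D5:**
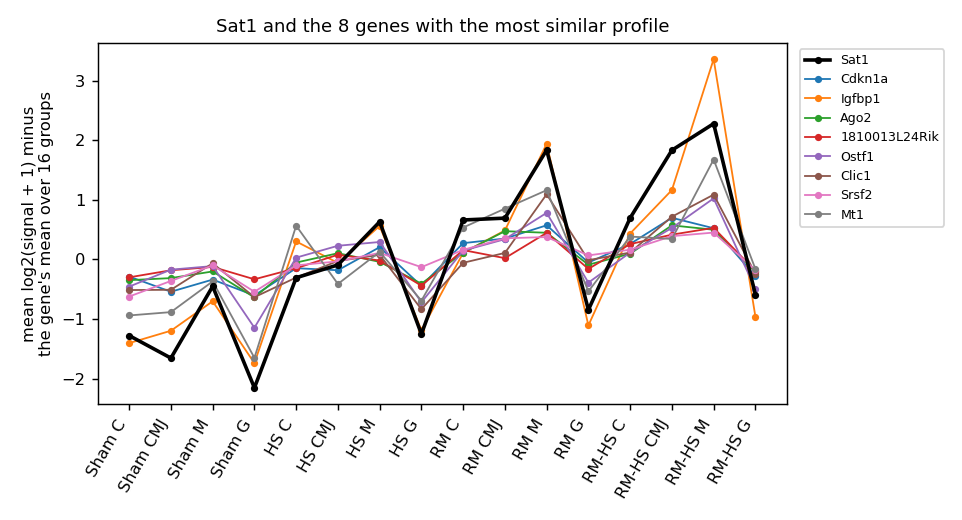
Mean log2(signal + 1) of Sat1 and the 8 genes most like it in each of 16 combinations of group and area, minus the gene's own mean over the 16. All 9 lines lie below their own mean in Sham glomeruli and above it in RM-HS medulla, where Igfbp1 has the highest point.

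Within the polyamine list, Azin1 (r = 0.81) and Oaz1 (r = 0.80) had the profiles most like Sat1, at ranks 115 and 119 of 8826. Smox (0.12), Odc1 (0.22), Sat2 (-0.06) and Mat2a (-0.12) did not resemble it.

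Markers of other cell types moved with some of these groups, and their part in the Sat1 levels was not tested. Of 10 macrophage and monocyte markers, 5 were measured (Csf1r, C1qa, C1qb, C1qc and Cd74), and their summed medullary signal had a median of 238 in Sham (209 to 326), 263 in HS (204 to 320), 314 in RM (262 to 432) and 364 in RM-HS (305 to 442). C1qb, C1qc and Cd74 passed the test in RM-HS medulla (0.74 ± 0.22, 0.70 ± 0.18 and 0.89 ± 0.27, adjusted p = 0.027, 0.0072 and 0.032, limma). These calls were lost in 8, 5 and 9 of 24 alternatives, all 3 of them without RM-HS run 2 or Sham run 1. In RM-HS medulla 4.5% of all genes were called. Of the 5, 1 was also called higher in RM cortex (5.49% of all genes), RM glomeruli (12.8%), the RM average (8.3%) and RM-HS glomeruli (6.62%). In the RM-HS average 2 were called higher (6.83%). At the junction, where RM-HS exceeded RM most, the sum of the 5 had medians of 218 in Sham, 224 in HS, 233 in RM and 249 in RM-HS. Of the 5, 0 were called there in any group (limma; 2 of 5 with an unadjusted p under 0.05 in RM-HS and 0 in HS and RM; 0.283%, 5.64% and 6.15% of all genes called in HS, RM and RM-HS). In most junction ROIs only 1 of the 5 in Sham, 2 in HS, 1 in RM and 3 in RM-HS exceeded 2 times the negative probe. These sums therefore lie close to background.

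S100a9, the 1 neutrophil marker measured of 6, had median signals of 23.3 to 51.5 over the 16 combinations of group and area, over 2 times the negative probe in 3 of them, and was not called in medulla. Loop of Henle markers were summed as well, and in medulla the sum had a median of 2294 in Sham, 1223 in HS, 832 in RM and 1271 in RM-HS. Of the 5 measured, 3 were called lower in RM medulla (5.96% of all genes called), 1 in HS medulla (0.374%) and 1 in RM-HS medulla (4.5%). At the junction 2 were called lower in RM (5.64%) and 2 in RM-HS (6.15%). In HS glomeruli (9.52%) and in the RM average (8.3%) 1 was lower, and 0 were called higher anywhere. Slc12a1, the salt cotransporter of the thick ascending limb, fell in RM medulla by 1.37 ± 0.25 (log2 difference -1.37, adjusted p = 1.7e-05, limma), a call that held in all 24 alternatives. The 3 collecting duct markers measured of 8 (Aqp2, Aqp3 and Slc4a1) had a median medullary sum of 561 in Sham, 492.9 in HS, 246 in RM and 369 in RM-HS. Aqp2, the water channel of principal cells, was lower in RM medulla (-1.502 ± 0.28, adjusted p = 1.5e-05, limma) and in RM-HS medulla (-0.91 ± 0.28, adjusted p = 0.033, limma), the latter lost in 7 of 24 alternatives, among them without RM-HS run 1, RM-HS run 3, Sham run 2 or Sham run 3 (adjusted p up to 0.594). Of 6 podocyte markers, 1 was called higher in RM glomeruli (12.8% of all genes called), and 1 higher and 1 lower in HS glomeruli (9.52%). The 3 endothelial markers measured of 7 (Cdh5, Flt1 and Ehd3) had a median glomerular sum of 163 in Sham, 242 in HS, 282 in RM and 241 in RM-HS. In glomeruli 1 of these 3 was called higher in RM, 1 in HS and 2 in RM-HS (6.62% of all genes called in RM-HS). Flt1, a receptor of vascular endothelial growth factor, was higher in glomeruli of RM (1.54 ± 0.19, adjusted p = 1.4e-10, limma), HS (0.84 ± 0.23, adjusted p = 0.012, limma) and RM-HS (1.20 ± 0.20, adjusted p = 8.5e-06, limma), the HS call being lost without HS run 3 and the RM-HS call without RM-HS run 3 (adjusted p up to 0.320 and 0.0576 over the alternatives). Of 7 proximal tubule markers, 0 were called in any area or average of any injury (limma; at most 3 of 7 with an unadjusted p under 0.05), where 0.0793% to 12.8% of all genes were called. The median number of reads per ROI also differed in medulla, at 1042530 in Sham, 316815 in HS, 1389780 in RM and 1564810 in RM-HS.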

How the data were processed

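The authors deposited 1 table of signal per gene and ROI, in which the upper quartile is 58.2 in every ROI, as upper-quartile (Q3) scaling by the authors gives. The submitters' processing notes list the builds GRCh38 and hg38 without a role, and the counting tools are not given in the sources used here. Dividing values by each ROI's smallest step gave whole reads, within 0.001 reads, for 100% of values, and these served for depth alone. Count tests were not run.

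A gene was kept if 10% of ROIs or more held it above 2 times their negative probe, which left 8827 genes and dropped 444. log2(signal + 1) was fitted with limma 3.58.1 (R 4.3.3, statmod 1.5.0) with 16 means of group and area, a plate term and the 12 well runs as a random block (correlation 0.13). The plate A ROI was left out of the fit. Contrasts were two-sided with Benjamini-Hochberg adjustment over 8827 genes. The fit was tested on simulated data. Plots used matplotlib 3.10.9.

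Sat1, the gene lists and the tests were chosen with earlier results of these data known. Named genes are called members of the polyamine list and of the regulator and ferroptosis list, Sat2, Smox, Paox, Odc1, Srm, Sms, Amd1 and Oaz1 in any case, and the 8 genes most correlated with Sat1 over the 16 means. Markers, and members not called such as Azin1, were named after their values were seen. Alternatives changed the scaling, filter, pseudocount, plate term, block, plate and runs, and leaving out ROIs under 50000 reads was chosen after seeing the data. The values of 1 tested polyamine list member are not reported here, although it is among those counted.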

Additional observations from a re-analysis of the deposited data

Results flagged for a closer look

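In 16 combinations of group and area, 1 Sat1 value stood apart from the rest of its group in 2. The rule set the gap to the nearest value against the range, on the signal before the log. For independent, normally spread values it flags about 1 in 20 groups, but these ROIs share runs. The rule was not run on the log2 scale. The highest Sham medullary ROI read 411, in Sham run 3, and the highest RM cortical ROI read 1067, in RM run 1.

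Injury effects that differed between an area and cortex (log2 difference of effects, adjusted p under 0.05 in limma over ROIs) are given here. At the junction in RM, Mat2a gave -1.92. In RM medulla the values were 0.77 for Odc1, -0.89 for Slc3a2, 1.11 for Acsl4 and -0.84 for Gpx4, the peroxidase that repairs lipid peroxides. In HS, Mat2a gave -1.12 at the junction. In HS glomeruli Slc47a1, a proton-coupled cation exporter, gave -0.81 and Ncoa4, the ferritin autophagy receptor, -0.91. In HS medulla Eif5a gave -0.69 and Ncoa4 -0.89. In RM-HS, Mat2a gave -1.76 at the junction, and in medulla Mat2a gave -0.75, Slc3a2 -0.94 and Acsl4 1.02. Of these, the Mat2a values at the junction in RM and RM-HS were called in all 24 alternatives, and each of the others named here was lost in 2 to 13.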

How the results depend on the processing

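All 360 Sat1 differences from Sham under alternatives kept their sign, and 351 lay within 1 SD of the reported value. That SD is the log2 spread of ROIs within a group and area (0.47), or of run means for averages (0.44). It is wider than the standard errors, so HS glomeruli at 0.30 against 0.77 counted as within it. Leaving out a run of a group outside the comparison could move a value little. RM cortex without HS run 3, for example, stayed at 1.98. Under quantile normalization Sat1 came to 1.45 in RM cortex, 1.74 at the RM junction, 1.57 in the RM average, 2.91 at the RM-HS junction and 2.14 in RM-HS medulla. With the negative probe subtracted, glomerular Sat1 came to 1.83 in RM, 1.34 in HS and 2.03 in RM-HS. With 1 run left out, the HS junction value ranged from 0.98 (without HS run 3) to 1.80 (without HS run 1). Quantile normalization turned the sign of Oaz1 in RM cortex (-0.057), the RM average (-0.093) and the RM-HS junction (-0.0065), and of Mat2a in RM cortex (-0.14); the cause was not tested.

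Called polyamine genes in the average over areas moved with the share of all genes called, given in brackets. They numbered 7 in RM (28.9%) and 6 in RM-HS (20.2%) with plate C alone, and 10 in RM (33.6%), 4 in HS (5.04%) and 6 in RM-HS (22.5%) without the block. With 1 mean per run and area they numbered 2 in RM (4.83%) and 1 in RM-HS (3.29%). In HS they numbered 1 with the negative probe subtracted (0.487%) and 3 with no plate term (3.63%). With 1 run left out they ranged from 2 to 7 in RM, 0 to 4 in HS and 1 to 6 in RM-HS. Count tests on recovered reads, planned as alternatives, were not run. No paired analysis was possible because the labels give no replicate numbers that groups share; within a group, areas share well runs, which entered the fit as a block. Glomerular values rest on a median of 30 Sat1 reads, and HS is set against Sham on its own plate through 12 ROIs.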
